A study of Homo sapiens with 2 samples.

Results

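Histone genes were taken from the deposited expression table by their symbols, those beginning with HIST1H to HIST4H, H1F, H2AF, H2BF or H3F3 or with the newer names of the same genes, which gave 91 of 19607 genes. Of these, 72 were clustered genes (symbols beginning HIST1H to HIST4H) and the other 19 are called variant genes. The cells were CWR22rv1, a human prostate cancer line, grown in medium with serum. There was 1 RNA library from Akt1/2 DKO cells, in which CRISPR/Cas9 guides had been directed at both AKT1 and AKT2, and 1 from wild-type cells, called the control here. The DKO cells came from a monoclonal line, and the labels did not say which clone was sequenced, so the knockout cannot be told apart from other differences of 1 clone. The labels name no treatment of either.

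Nucleosomes are built from the core histones H2A, H2B, H3 and H4, and linker histone H1 binds the DNA between them. The clustered genes supply most core histone protein while DNA is copied: their mRNAs rise in S phase, end in a stem-loop in place of a poly(A) tail, and are bound at that stem-loop by SLBP. Variants such as H2A.Z and H3.3 are made through the cell cycle from polyadenylated mRNAs, and replace the standard histones at particular places, among them active promoters. The variant class here was set by symbol alone, so not every gene in it need be of this kind.

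The stem-loop is shown here because it is the sequence by which clustered histone mRNAs are known. It was searched on the sense strand of every GENCODE release 29 transcript (GRCh38) as 16 bases that read GG, 2 of any kind, CTT, 1 of any kind, T, 1 of any kind, AG, 2 of any kind and CC. It was present in 33 of 72 clustered genes (45.8%), in 1 of 19 variant genes and in 0.518% of 19480 other genes. The models of the other 39 clustered genes did not hold it in these letters. A model that ends before the stem-loop cannot hold it, so these genes are not shown to lack one. In the lines below the stem-loop is in capitals, with the bases on either side in lower case, written 5′ to 3′ in the direction of the transcript. The first 4 are the clustered genes with the most reads in their class or near-identical copies discussed later, and the last is the variant gene that holds the motif.
HIST3H2A (chr1:228457363-228457390, minus strand): cataaaGGCTCTTTTCAGAGCCacctac
HIST2H2BE (chr1:149886182-149886209, minus strand): tccaaaGGCTCTTTTCAGAGCCacccac
HIST1H2AC (chr6:26124663-26124690, plus strand): cccaaaGGCTCTTTTCAGAGCCccccta
HIST2H2AA4 (chr1:149851568-149851595, plus strand): tcaaaaGGCTCTTTTCAGAGCCacccac
H2AFX (chr11:119094892-119094919, minus strand): cacaaaGGCCCTTTTAAGGGCCaccacc
The 4 clustered stem-loops had the same 16 bases. That of H2AFX, the gene of the damage-responsive variant H2A.X, differed from them in both its stem and its loop. Many transcript models do not end there: after the stem-loop the annotated transcript ran on for 390 bases in HIST3H2A, 1729 in HIST2H2BE, 1128 in HIST1H2AC and 1044 in H2AFX, but for 35 in HIST2H2AA4.

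The deposited values were estimated read numbers per gene, before any normalization, and FPKM, which allows for the length of the transcript and the depth of the library. The estimated reads summed to 9970820 for the control and 10718650 for the DKO library, and below, control reads and DKO reads are those of these libraries. Reads were rounded and scaled between libraries by TMM, and every fold change is Akt1/2 DKO over control with a 95% exact (Clopper-Pearson) interval that covers counting error only. Since each condition was 1 library, no difference has a replicate check and no test was made. A library with fewer than 3 reads of a gene was set to 3, a floor of 0.301 CPM (reads scaled to the library total) for the control and 0.28 CPM for the DKO library. AKT1 had 2645 control reads and 591 DKO reads, and AKT2 had 2362 and 667. The luminal keratin genes KRT8 and KRT18, markers of prostate luminal cells, had 6408 and 2433 control reads and 12815 and 5306 DKO reads. The 6 fibroblast markers summed to 142 and 157 reads and did not move together: COL3A1 had 74 and 9, COL1A1 55 and 106, and LUM 5 and 35. The 6 immune markers summed to 56 and 80, of which CD68 gave 50 and 69 and PTPRC 1 and 0. The 8 germ cell markers summed to 4 and 3, with DDX4 at 0 in both.

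Variant genes made up nearly all histone mRNA in these libraries. The 19 variant genes held 35799 control reads (0.359% of all reads) and 38932 DKO reads (0.363%), whereas the 72 clustered genes held 785 (0.00787%) and 612 (0.00571%). On the FPKM scale the summed level of the variant genes was 32.4 times that of the clustered genes in the control library and 43.6 times in the Akt1/2 DKO library. Clustered genes thus held 2.99% and 2.24% of histone FPKM. Whether the libraries were made from poly(A)-selected RNA was not given in the sources used here, so a low level of clustered mRNAs in the cells and a low capture of mRNAs without a poly(A) tail cannot be told apart.

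**Figure D1:**
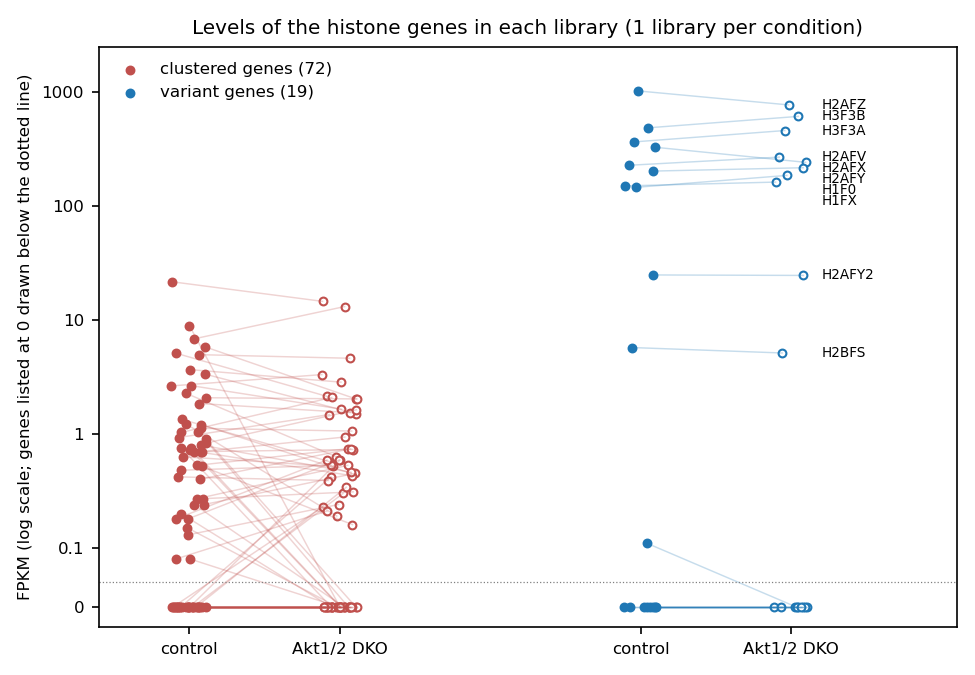
FPKM (log axis) of the 91 histone genes in the control library (filled points) and the Akt1/2 DKO library (open points), with a line joining each gene, and clustered genes in red and variant genes in blue. Variant genes reach 1028.64 FPKM (H2AFZ, control), whereas the highest clustered value is 21.7 FPKM (HIST3H2A, control), and genes listed at 0 lie below the dotted line.

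Of the 91 genes, 29 had no read in either library, 27 had 1 to 9 reads in both libraries together, and 35 had at least 10 and were compared. Of these 35, 14 differed at least 1.5-fold, 6 higher and 8 lower in Akt1/2 DKO cells, beside 30.9% of the 13318 genes compared over the whole table (15.9% higher and 15.0% lower). All 14 were clustered genes, 14 of 25 (56.0%), and none was a variant gene, 0 of 10. The classes differed in depth, and genes of low count passed this size of change more often: 52.4% of genes with at least 10 and under 400 reads did, the range that held every compared clustered gene, against 15.1% of genes with at least 1000 reads, the range that held 9 of the 10 variant genes. So the clustered share was close to that of other genes of low count. The interval excluded no change in 6 of the 25 clustered genes, all among the 14, beside 59.2% of all genes and 50.6% of those under 400 reads, and in 7 of the 10 variant genes, beside 69.7% of genes with at least 1000 reads. The median log2 fold change was -0.15 over the clustered genes and 0.07 over the variant genes, beside 0.01 over all genes compared.

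**Figure D2:**
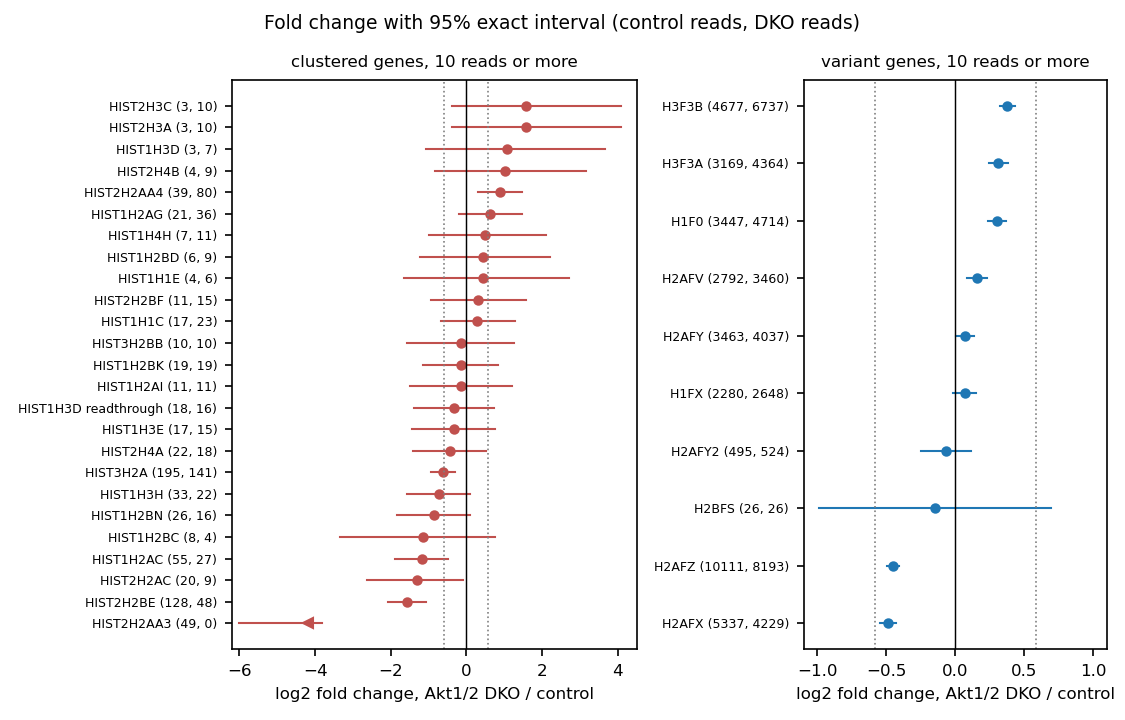
Log2 fold change, Akt1/2 DKO over control, of the 25 clustered (left) and 10 variant (right) histone genes with at least 10 reads, with 95% exact intervals and the reads of each library in parentheses. Dotted lines mark 1.5-fold and the arrowhead marks HIST2H2AA3, with 0 reads in Akt1/2 DKO cells, whose value is a bound. All variant genes lie between the dotted lines, and the intervals of the clustered genes are wide.

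Among the variant genes, those of the H2A family did not share a direction. H2AFZ, which encodes H2A.Z.1, was the histone gene with the highest level, at 1028.64 FPKM in control cells and 775.33 FPKM in DKO cells. Its 10111 and 8193 reads gave a 1.37-fold lower level in Akt1/2 DKO cells (95% interval 1.33 to 1.41). H2AFX had 5337 and 4229 reads, 1.4-fold lower (1.34 to 1.46). Both were below the control by more than counting error and short of 1.5-fold.

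H2AFV encodes H2A.Z.2, a near-identical protein to H2A.Z.1 made from another gene. It had 2792 control reads and 3460 DKO reads, 1.12-fold higher (1.06 to 1.18), which is the opposite direction to H2AFZ. The FPKM ratio of H2AFZ to H2AFV was therefore 4.5 in control and 2.87 in DKO cells, a log2 change of the ratio of -0.61 (95% interval -0.70 to -0.53) in reads that no scaling of the libraries can alter. Their reads together were 12903 and 11653, a fold of 0.815. By contrast, the ratio of H2AFX to H2AFZ moved by -0.03 on the log2 scale (-0.10 to 0.04).

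The genes of macroH2A, a variant with a large extra domain that is enriched on silent chromatin, differed little. H2AFY had 3463 and 4037 reads, a log2 fold change of 0.07 (0.01 to 0.14), and H2AFY2 had 495 and 524 reads, a log2 fold change of -0.07 (-0.25 to 0.11).

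Both genes of H3.3, the replacement H3 laid down outside S phase, were higher in Akt1/2 DKO cells. H3F3A had 3169 control reads and 4364 DKO reads, 1.24-fold higher (1.19 to 1.3), and H3F3B had 4677 and 6737, 1.3-fold higher (1.25 to 1.35). They encode the same protein, and their reads together were 7846 and 11101, 1.28-fold higher (1.24 to 1.31). The FPKM ratio of H3F3B to H3F3A was 1.33 in each library. Both genes differed by a similar amount, and neither reached 1.5-fold.

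Of the linker histones, H1F0, the H1 gene linked to differentiated and resting cells, had 3447 and 4714 reads, 1.23-fold higher in Akt1/2 DKO cells (1.18 to 1.29). H1FX, the other replication-independent linker histone detected, had 2280 and 2648 reads, a log2 fold change of 0.07 (-0.01 to 0.15). H1FX lies on chromosome 3, where the median log2 fold change of the 666 genes with at least 50 reads was -0.53, the lowest of any chromosome. The part of that chromosome-wide difference in the value of H1FX was not tested. The FPKM ratio of H1F0 to H1FX was 0.972 in control and 1.14 in DKO cells, a log2 change of 0.24 in read ratio (0.13 to 0.34).

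The remaining variant genes were low or not detected. H2BFS had 26 reads in each library and shares 74.4% of the 31-base words of HIST1H2BK, so its reads may belong to either gene. H2BFM had 2 control reads and 0 DKO reads. The germline genes H1FOO, H1FNT, H2BFWT and H2AFB1 to H2AFB3 had no reads in either library, nor had H2AFJ and H3F3C. The 9 variant genes with at least 1000 reads thus ranged from -0.48 to 0.38 in log2 fold change.

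Summed over all 72 genes, the clustered class was 1.42-fold lower in Akt1/2 DKO cells (95% interval 1.28 to 1.58). Its FPKM summed to 91.7 in control and 68.0 in DKO cells. Against the variant genes, whose sum gave a fold of 0.981 (0.967 to 0.995; above 1 by total counts or upper-quartile scaling), the ratio of clustered to variant reads moved by -0.48 on the log2 scale (-0.63 to -0.33), which is free of library scaling. In RNA from whole cultures, fewer cells in S phase and less histone mRNA per cell cannot be told apart. The sum rested on few genes: without HIST2H2BE, HIST3H2A and HIST1H2AC, left out after their values were seen, it was 407 and 396 reads, a fold of 0.878 whose interval (0.762 to 1.01) includes no change.

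The sums of the clustered H2A and H2B genes were lower in Akt1/2 DKO cells. H2B genes had 228 control reads and 135 DKO reads, a fold of 0.534 (0.428 to 0.664). H2A genes had 401 and 306 reads, a fold of 0.688 (0.591 to 0.801). For H3 (87 and 85 reads), H4 (47 and 57) and H1 (22 and 29) the intervals included no change. At 22 to 87 control reads these families have intervals as wide as 0.66 to 2.17 (H1), and a difference between families was not tested. HIST2H2BE alone held 128 of the 228 control reads of H2B, and HIST3H2A 195 of the 401 of H2A. By genomic cluster, the 56 genes of HIST1 on chromosome 6 had 293 and 259 reads (fold 0.797, 0.672 to 0.946), the 12 of HIST2 on chromosome 1 had 284 and 201 (0.638, 0.530 to 0.767), and the 3 of HIST3, also on chromosome 1, had 205 and 151 (0.664, 0.535 to 0.824). The values of HIST2 and HIST3 rested largely on 1 gene each. HIST2H2BE held 128 of the 284 control reads and 48 of the 201 DKO reads of HIST2. HIST3H2A held 195 of the 205 control reads and 141 of the 151 DKO reads of HIST3. Between the first and last HIST1 genes, 12 other genes were compared, with a median log2 fold change of 0.186. Of these, 5 were at least 1.5-fold higher and 2 lower, beside 15.9% and 15.0% of all genes compared. Both directions were thus present among these 12 genes, and a shift of that stretch of chromosome 6 was not tested.

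HIST2H2BE, an H2B gene known to give polyadenylated transcripts outside S phase, had the lowest fold of the clustered genes that share few words with any other. It had 128 control reads and 48 DKO reads, 2.96-fold lower (2.11 to 4.21), and its FPKM was 5.81 and 2.03. It lies on chromosome 1 from 149884459 to 149886652 on the minus strand (GRCh38). Its neighbour HIST2H2AC, an H2A gene read in the opposite direction from 149886975, had 20 and 9 reads, 2.46-fold lower (1.07 to 6.14). The pair is divergent, and both genes were lower in Akt1/2 DKO cells, though HIST2H2AC shares 40.0% of its 31-base words with HIST2H2AA3 and HIST2H2AA4.

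HIST1H2AC, an H2A gene on chromosome 6 from 26124145 to 26139116, had 55 control reads and 27 DKO reads, 2.26-fold lower (1.4 to 3.72). Its divergent partner HIST1H2BC, an H2B gene, had 8 and 4 reads, 2.22-fold lower with an interval from 0.594 to 10.1 that includes no change. Both members of this pair had close to the same fold, but the 12 reads of HIST1H2BC carry little weight.

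HIST3H2A, an H2A gene of the small HIST3 cluster on chromosome 1 (228456979 to 228457873, minus strand), had the highest level of any clustered gene. Its 195 and 141 reads, 21.7 and 14.6 FPKM, gave a 1.53-fold lower level in Akt1/2 DKO cells (1.23 to 1.92). Its divergent partner HIST3H2BB, an H2B gene, had 10 reads in each library. At that depth a difference of the size seen in HIST3H2A was not detectable in HIST3H2BB, whose interval ran from 0.337 to 2.41.

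The stretches between the RefSeq start sites of these 3 divergent pairs are shown because each one lies between the starts of a pair of genes just described. They are written on the plus strand of GRCh38.p14, 5′ to 3′, with 3 motifs in capitals wherever they occur on either strand: the CCAAT box, the TATA box in the letters TATAAA, and the octamer in the letters ATTTGCAT, which is the site of POU2F1 and its relatives. No motif contains another.
HIST2H2BE and HIST2H2AC (chr1:149886683-149886917): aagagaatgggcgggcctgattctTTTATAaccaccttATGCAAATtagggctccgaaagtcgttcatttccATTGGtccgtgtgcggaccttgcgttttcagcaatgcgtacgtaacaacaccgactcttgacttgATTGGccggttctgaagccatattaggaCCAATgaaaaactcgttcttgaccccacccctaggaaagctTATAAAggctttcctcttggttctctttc
HIST1H2BC and HIST1H2AC (chr6:26123927-26124171): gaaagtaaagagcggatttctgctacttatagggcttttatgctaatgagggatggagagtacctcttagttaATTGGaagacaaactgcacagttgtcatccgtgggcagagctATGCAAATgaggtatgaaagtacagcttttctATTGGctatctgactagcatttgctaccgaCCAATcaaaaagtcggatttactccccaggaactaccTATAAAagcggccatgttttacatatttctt
HIST3H2A and HIST3H2BB (chr1:228457874-228458102): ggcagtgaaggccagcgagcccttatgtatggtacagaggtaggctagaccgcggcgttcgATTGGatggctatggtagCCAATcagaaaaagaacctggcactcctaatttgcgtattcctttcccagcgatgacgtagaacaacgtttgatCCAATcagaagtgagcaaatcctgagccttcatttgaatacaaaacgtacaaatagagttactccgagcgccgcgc
The region of HIST2H2BE and HIST2H2AC held 3 CCAAT, 2 TATAAA and 1 octamer, that of HIST1H2BC and HIST1H2AC held 3, 1 and 1, and that of HIST3H2A and HIST3H2BB held 3 CCAAT and neither of the other motifs in these exact letters.

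The same motifs were counted in RefSeq promoter windows, 250 bases before to 50 after each start, which were found for 77 of the 91 genes. A histone gene with several windows was counted once, by its highest count of each motif. The shares of all windows count each window by itself. The octamer was present in 25 of 61 clustered genes (41.0%), in 1 of 16 variant genes (H3F3B) and in 1.77% of all 35116 windows. Within the clustered class it was present in H2A (11 of 14) and H2B genes (14 of 18) and in no H1, H3 or H4 gene. TATAAA was present in 41 of 61 clustered genes (67.2%) and 4 of 16 variant genes, beside 11.5% of all windows. At least 2 CCAAT were present in 65.6% of clustered and 75.0% of variant genes (10.8% of all windows), and in 0 of 13 clustered H4 genes. The octamer was present in 31.8% of the clustered genes with at least 10 reads and in 46.2% of those with fewer. These are matches of letters in fixed windows, and the binding of factors was not measured.

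The lowest fold of all was in a pair of copies. HIST2H2AA3, an H2A gene on chromosome 1 (149842188 to 149842736, minus strand), had 49 control reads and 0 DKO reads, at least 18.1-fold lower with the DKO library set to 3 reads. HIST2H2AA4, from 149851061 to 149851624 on the plus strand, had 39 and 80 reads, 1.85-fold higher (1.25 to 2.79). The copies share 100% of the 31-base words of HIST2H2AA3, and their promoter windows were identical over 299 of 299 bases. Counted together they had 88 and 80 reads, 1.22-fold lower with an interval from 0.891 to 1.67 that includes no change. How the authors' counting divided reads between the copies was not given in the sources used here, so neither single value is taken as a difference of that gene.

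HIST2H3A and HIST2H3C, H3 genes with the same sequence, had 3 control reads and 10 DKO reads each. Together they had 6 and 20 reads, 3.01-fold higher (1.16 to 9.15). HIST2H3D, an H3 gene that shares 48.8% of its 31-base words with each of them, had 5 and 2 reads, the other direction. Reads of these genes may thus be counted in one another. HIST2H4A and HIST2H4B, H4 genes that share 98.6% of the shorter one's words, had 22 and 18 reads and 4 and 9 reads, which came to 26 and 27 together. The higher value of HIST2H4B alone (2.03-fold, 0.566 to 9.02) was thus absent from the sum of the copies.

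The other clustered genes past 1.5-fold had intervals that included no change. HIST1H2BN (26 and 16 reads) and HIST1H3H (33 and 22) were lower, with log2 fold changes of -0.85 (-1.85 to 0.10) and -0.73 (-1.58 to 0.09). By FPKM, 2.28 and 0.63, the value of HIST1H2BN was -1.86. HIST1H2AG (21 and 36 reads) and HIST1H3D (3 and 7) were higher, at 0.63 (-0.19 to 1.48) and 1.07 (-1.06 to 3.66). HIST1H3D lies within a longer transcript that carries its name in the table, which had 18 and 16 reads, so reads of either may be counted in the other. The 11 compared clustered genes within 1.5-fold had 10 to 40 reads in both libraries together, among them the H1 genes HIST1H1C (17 and 23) and HIST1H1E (4 and 6), the H2A gene HIST1H2AI (11 and 11) and the H4 gene HIST1H4H (7 and 11).

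Of the 26 clustered genes with 1 to 9 reads, 9 were listed at 0 only in the Akt1/2 DKO library and 5 only in the control library. The 5 were HIST1H3B and the H4 genes HIST1H4A, HIST1H4B, HIST1H4D and HIST1H4K, with 1 or 2 reads. A further 21 had no read in either library. They included the 4 testis-specific genes, HIST1H1T, HIST1H2AA, HIST1H2BA and HIST3H3. Over the whole table, at any read number, 639 of 19607 genes were listed at 0 only in the Akt1/2 DKO library and 873 only in the control library. A count of 0 allows up to 3 reads.

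The clustered genes known to give polyadenylated transcripts outside S phase were described as a list of 9: HIST1H1C, HIST1H2AC, HIST1H2BC, HIST1H2BD, HIST1H2BJ, HIST1H2BK, HIST2H2BE, HIST3H2A and HIST4H4. These 9 of 72 genes held 434 of the 785 clustered control reads and 276 of the 612 DKO reads, a fold of 0.574 (0.491 to 0.669). Of the 7 with at least 10 reads, 4 were at least 1.5-fold lower and none was higher. Counted in either direction that is 57.1%, beside 56.0% of all compared clustered genes and 52.4% of genes with at least 10 and under 400 reads. Counted as lower only, the 4 of 7 stand beside 8 of 25 compared clustered genes. Of the genes with at least 10 and under 400 reads, 22.9% were lower by as much. HIST1H2BK had 19 reads in each library, HIST1H2BD had 6 and 9, HIST1H2BJ 3 and 4, and HIST4H4 3 and 1. The list's lower sum came from HIST2H2BE, HIST3H2A and HIST1H2AC, and no other member had an interval that excluded no change.

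Clustered genes also differed in where their GENCODE transcripts end. Of the 72, 24 had a transcript that ran at least 100 bases past its stem-loop, and these held 71.7% of clustered reads. Their median level was 0.645 FPKM (mean of both libraries), and 16 of the 24 had at least 10 reads. The 9 whose transcript ended nearer the stem-loop had a median of 0.705 FPKM and held 15.7% of reads, and 4 of them had at least 10 reads. The other 39 had no stem-loop in the annotated transcript, and 18 of them had no reads in either library (median 0.115 FPKM). The longest transcript of each of these 39 genes had 297 to 950 bases, beside 659 to 4137 in the 24. The polyadenylation signal AATAAA stood in the last 50 bases of a transcript in 16 of the 24, 4 of the 9 and 1 of the 39 genes. Genes with no stem-loop in their model thus had the lowest median, and whether reads beyond a model's end were counted was not given in the sources used here.

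Genes that act on histones and their mRNAs were described as lists, whose counts past 1.5-fold stand beside 30.9% of all genes compared. That share depended on depth, at 15.1% of genes with at least 1000 reads and 52.4% of those with at least 10 and under 400. Apart from the S-phase genes, the listed genes had 323 to 11914 reads in both libraries together. A share matched to their depth was not worked out. Of 13 genes of stem-loop processing and histone mRNA decay, 12 differed by less than 1.5-fold (median log2 fold change 0.01). ZNF473, a zinc-finger protein of the histone pre-mRNA processing complex, had 860 control reads and 477 DKO reads, a log2 fold change of -1.0 (-1.16 to -0.84). SLBP, which binds the stem-loop, had 2309 and 2632 reads, a log2 fold change of 0.04 (-0.04 to 0.12). Of 8 genes of histone gene transcription (median 0.28), 1 was past 1.5-fold: E2F2, an activator of S-phase genes, had 827 and 1764 reads, a log2 fold change of 0.94 (0.82 to 1.07). NPAT, the co-activator of clustered histone genes, had 211 and 233 reads, a log2 fold change of -0.01 (-0.28 to 0.27).

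None of 16 chaperones of H3 and H4 or H2A and H2B was past 1.5-fold (median 0.09). Of 16 chaperones and exchangers of variants (median -0.01), 1 was: CENPA, itself the centromeric H3 variant and outside the symbol rule, had 225 and 150 reads, a log2 fold change of -0.73 (-1.04 to -0.43). Of 20 S-phase genes, 2 were at least 1.5-fold higher and none was lower by as much, beside 15.1% of all genes with at least 1000 reads, the range that held all 20, and their median was 0.22. GMNN, the inhibitor of licensing, had 484 and 1106 reads (log2 fold change 1.04, 0.89 to 1.2), and CDT1, the licensing factor that it binds, had 857 and 1784 (0.91, 0.79 to 1.03).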

How the data were processed

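RNA from 1 control and 1 Akt1/2 DKO library was sequenced. The authors deposited estimated counts per gene, without normalization, and FPKM for 19607 genes. The submitters' processing notes name fastp 0.20.0, TopHat, Cufflinks, edgeR and GRCh38.p10, without roles. The authors' own columns of fold changes, p-values and class summaries, and their similarity of libraries, were not used. No sample column was left out.

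Estimated counts were rounded, and TMM scaling (edgeR 4.0.16, R 4.3.3) set the library ratio at 1.11. Genes with at least 10 reads in both libraries together were compared. Exact intervals came from R for single genes and from scipy 1.17.1 for sums of genes. Intervals of the change of a ratio between genes or classes were normal approximations. No p-value was computed, because each condition was 1 library. The steps were tested on simulated data. Near-identical genes were defined as sharing at least 50% of the shorter gene's 31-base words in GENCODE release 29 transcripts. Promoters came from RefSeq (GRCh38.p14).

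The members and lists were chosen with earlier results of these data known. Named were AKT1, AKT2, variant genes with at least 10 reads, clustered genes with at least 50, the 5 largest rises and falls, and both lists of special clustered genes. From other lists, members past 1.5-fold with at least 100 reads were named. SLBP, NPAT, the cell type markers given, the copies and partners of named genes and the low genes listed were added after their values were seen, as were the depth classes. Alternatives were other scalings (total count, upper quartile, DESeq2 1.42.0), FPKM, other read filters, a 2-fold threshold and a prior count of 1. One marker gene is not reported here.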

Additional observations from a re-analysis of the deposited data

How the results depend on the processing

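No paired analysis was possible because there was only 1 library per genotype. The count of clustered genes past 1.5-fold, 14, was also that of all histone genes, since no variant gene passed under any alternative run. It was 14 of 25 compared, 7 of 15 when each library had to reach 10 reads, 6 of 6 (2 higher and 4 lower) when both together had to reach 50, and 9 of 25 at 2-fold. With near-identical copies summed, an alternative chosen after seeing the data, it was 9 of 20, with 2 higher and 7 lower. The share of all genes was not worked out for the other filters or for 2-fold, so those counts have no background beside them. Among the 6 of 6 is HIST2H2AA4, whose single value is not taken as a difference. Its copy HIST2H2AA3, with 49 control reads and 0 DKO reads, fell short of the filter at 50. The median log2 fold change of the clustered genes, -0.15, was -0.32 and -0.68 under the same 2 read filters. The clustered sum, -0.51 on the log2 scale, was -0.46 by total counts and -0.43 by FPKM. Without HIST3H2A and HIST2H2BE it was -0.276, and also without HIST1H2AC -0.188, both again chosen after seeing the data. The variant sum, -0.03, was 0.0167 by total counts, 0.0246 by upper-quartile scaling and -0.00569 by FPKM. The median of the S-phase list, 0.22, was 0.267, 0.275 and 0.268 under these 3 settings. Total counts and upper-quartile scaling change only the library ratio, 1.11 by TMM, to 1.075 and 1.07, and the cause of the shift with FPKM was not tested. Of 174 alternative values of the 35 compared histone genes, 169 stayed within the counting interval and 5 moved beyond it, namely 3 of H2AFZ, 1 of H2AFV and that of HIST1H2BN by FPKM (-1.86, from -0.85). The sign turned in 1, HIST1H2BD, from 0.44 to -0.08 by FPKM. Clustered genes with about 10 reads have intervals several-fold wide, so only large differences could be detected in them.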
